A study of Mus musculus with 8 samples.

Results

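The receptors for platelet-derived growth factor (PDGF) and fibroblast growth factor (FGF), together with the PDGF ligands, were followed in cultured mouse oligodendrocyte progenitors kept in high or low glucose. The set holds 9 genes of the 56980 gene IDs in the count table and was chosen by name, not by measured values: the PDGF receptors Pdgfra and Pdgfrb, the FGF receptors Fgfr1, Fgfr2 and Fgfr3, and the ligands Pdgfa, Pdgfb, Pdgfc and Pdgfd. Of these, 8 passed the filter on low counts and were tested, and Pdgfb was listed at 0 in every library. All cells came from the cortex of wild-type C57BL/6 pups of either sex at postnatal day 6 to 8. Microglia and endothelial cells had been held back on lectin dishes before an antibody to PDGFRα captured the progenitors, so the presence of Pdgfra RNA reflects the selection and is no finding. Every culture was expanded in 25 mM glucose with 10 ng/mL recombinant human PDGF-AA and 20 ng/mL recombinant human bFGF. The bFGF was washed out before the experiment, and PDGF-AA stayed in the medium of both groups to the end. The high glucose group (HG) remained at 25 mM, while the low glucose group (LG) reached 12.5 mM at day 1, 5 mM at day 2 and 2.5 mM from day 3. Cells of both groups were lysed at day 5. Each group holds 4 libraries numbered 1 to 4. Numbers 1 and 2 carry the same preparation code in both groups and numbers 3 and 4 a code each, so n = 4 counts libraries from 3 preparations. The labels do not say whether pups were pooled.

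PDGF ligands are secreted dimers, and binding brings receptor chains together so that their kinase domains phosphorylate each other and start Ras, ERK and phosphatidylinositol 3-kinase signalling. PDGF-AA acts through PDGFRα and is the main mitogen and survival factor of oligodendrocyte progenitors, which lose this receptor as they mature. PDGFRβ prefers PDGF-BB and PDGF-DD and is known in the brain from pericytes. FGF receptors bind FGF with heparan sulfate. In this lineage FGFR1 is known from progenitors and FGFR2 from maturing oligodendrocytes, while FGFR3 is also abundant in astrocytes.

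Total counts per library ran from 50864130 to 65733928. These totals exceed the number of read pairs that the labels state, so both mates of a pair may have been counted, in which case a count is not an independent fragment and the limit for a count of 0 is looser than given. The cells carried all 12 markers listed for progenitors, at a summed level of 8135 to 11431 CPM (counts per 1000000 of the library total scaled by TMM factors), and Ptprz1 was the most abundant at 2497 CPM. The endothelial markers Cldn5 and Cdh5 and the microglial markers Cx3cr1, Itgam and Trem2 were listed at 0 in all 8 libraries. A listed 0 can arise in other ways than absent RNA, since all 37 mitochondrial gene IDs, which every cell transcribes, were also at 0. Along the main axis of a principal component analysis (47.1% of the variance) numbers 1 and 2 lay apart from numbers 3 and 4 in both groups.

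Length-scaled levels, in FPKM (CPM divided by kilobases of merged exons), allow the members to be ranked against each other. Pdgfra led by a wide margin at 176.5 ± 31.3 FPKM (SD, n = 8 libraries) and was followed by Fgfr1 at 13.1 ± 0.887 FPKM. Their ranges did not overlap, and Pdgfra was 10.4 to 17.4 times Fgfr1 in single libraries. Fgfr3 at 5.91 ± 3.39 FPKM and the ligand gene Pdgfa at 5.75 ± 0.710 FPKM had no single order over the 8 libraries. Fgfr3 lay above Pdgfa in every library of numbers 1 and 2, in HG replicate 1 only just (6.64 against 6.60 FPKM). In every library of numbers 3 and 4 it lay below. Pdgfc at 1.98 ± 0.134 FPKM and Fgfr2 at 1.85 ± 1.20 FPKM had no single order either. Fgfr2 was above Pdgfc in every library of numbers 1 and 2 and below it in every library of numbers 3 and 4. With the longest transcript in place of merged exons, Fgfr2 was at 4.30 FPKM and Pdgfc at 2.87 FPKM. Pdgfrb averaged 0.435 ± 0.447 FPKM and Pdgfd 0.0998 ± 0.0476 FPKM, and their ranges overlapped. These SDs span both groups and all preparations, and the plot of length-scaled levels shows that the spread was far wider for Fgfr2, Fgfr3 and Pdgfrb than for Fgfr1 or Pdgfc.

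**Figure D1:**
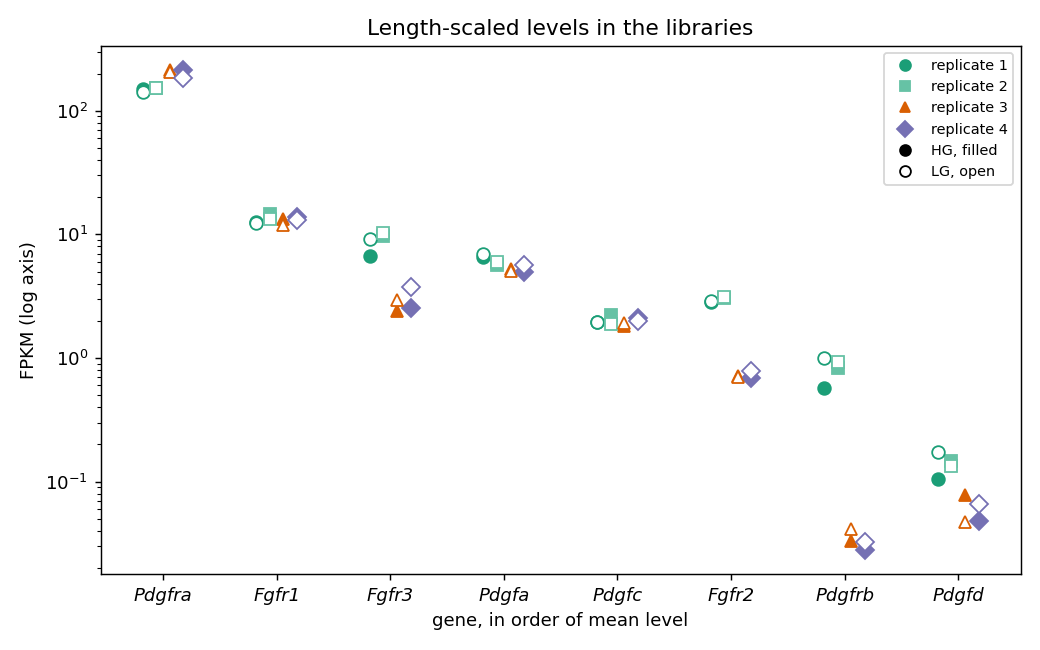
Length-scaled level (FPKM, log axis) of the 8 members with counts in each library, ordered by mean level, with HG filled and LG open and replicate numbers by colour and shape. Pdgfra lies from 140.8 to 214.2 FPKM above all other members, while Pdgfrb falls into separate levels for replicates 1 and 2 and for replicates 3 and 4.

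Pdgfra (ENSMUSG00000029231) lies on GRCm38 chromosome 5 at 75152292 to 75198215, plus strand. Its level was 1502, 1527, 2147 and 2130.3 CPM in HG replicates 1 to 4 and 1411, 1520.5, 2072 and 1847 CPM in LG replicates 1 to 4. LG was below HG in every pair, but the groups overlapped, and replicates 3 and 4 stood above replicates 1 and 2 in both. Pdgfrb (ENSMUSG00000024620), on chromosome 18 at 61045150 to 61085061, plus strand, had 170, 239, 11 and 9 counts in HG replicates 1 to 4 and 291, 327, 12 and 12 counts in LG. That is 3.13, 4.57, 0.181 and 0.153 CPM in HG and 5.52, 5.11, 0.225 and 0.177 CPM in LG. LG was higher in each pair, the groups overlapped, and replicates 1 and 2 stood far above replicates 3 and 4.

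Fgfr1 (ENSMUSG00000031565), on chromosome 8 at 25513654 to 25575718, plus strand, encodes an FGF receptor known from progenitors. It stood at 123.4, 144.7, 131.9 and 137.2 CPM in HG replicates 1 to 4 and at 121.9, 131.0, 117.5 and 129.0 CPM in LG. It was the steadiest receptor, slightly lower in LG in each pair. Fgfr2 (ENSMUSG00000030849) lies on chromosome 7 at 130162451 to 133123350, minus strand, an annotated span of 2960900 bases. Its level was 29.2, 31.3, 7.40 and 7.16 CPM in HG and 29.6, 32.2, 7.28 and 8.15 CPM in LG. HG and LG values of the same number nearly coincided. Fgfr3 (ENSMUSG00000054252), on chromosome 5 at 33721674 to 33737068, plus strand, was at 47.5, 69.1, 17.3 and 18.3 CPM in HG and at 65.7, 73.0, 20.999 and 26.8 CPM in LG. Each LG library was above the HG library of its number, while replicates 1 and 2 of both groups lay above all of replicates 3 and 4. Counts per gene do not separate the splice forms of the FGF receptors.

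Among the ligand genes, Pdgfa (ENSMUSG00000025856), on chromosome 5 at 138976014 to 138997370, minus strand, encodes the chain of the PDGF-AA that was also added to the medium. It was at 20.6, 17.6, 16.5 and 15.4 CPM in HG replicates 1 to 4 and at 21.5, 18.7, 15.7 and 17.6 CPM in LG. Pdgfa made up 69.4% to 76.5% of the summed FPKM of the ligand genes in single libraries. Pdgfc (ENSMUSG00000028019), on chromosome 3 at 81036416 to 81214040, plus strand, encodes a chain that is secreted in latent form and freed by proteases, and its product also acts on PDGFRα. It held most of the rest, at 9.98, 11.3, 9.26 and 10.8 CPM in HG and 9.90, 9.51, 9.80 and 10.1 CPM in LG. Pdgfd (ENSMUSG00000032006), on chromosome 9 at 6168584 to 6378850, plus strand, encodes a ligand of PDGFRβ and had only 8 to 29 counts per library, or 0.331, 0.459, 0.246 and 0.153 CPM in HG and 0.550, 0.422, 0.150 and 0.207 CPM in LG. HG and LG overlapped for all 3 of these ligand genes. Pdgfb (ENSMUSG00000000489), on chromosome 15 at 79995874 to 80014977, minus strand, encodes the ligand that endothelial cells use to recruit pericytes. Its 0 counts allow up to 0.0443 to 0.0574 CPM per library, taking 3 counts as the limit, for counting error only, and 4162 of 21922 protein-coding genes were likewise at 0 in all libraries.

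**Figure D2:**
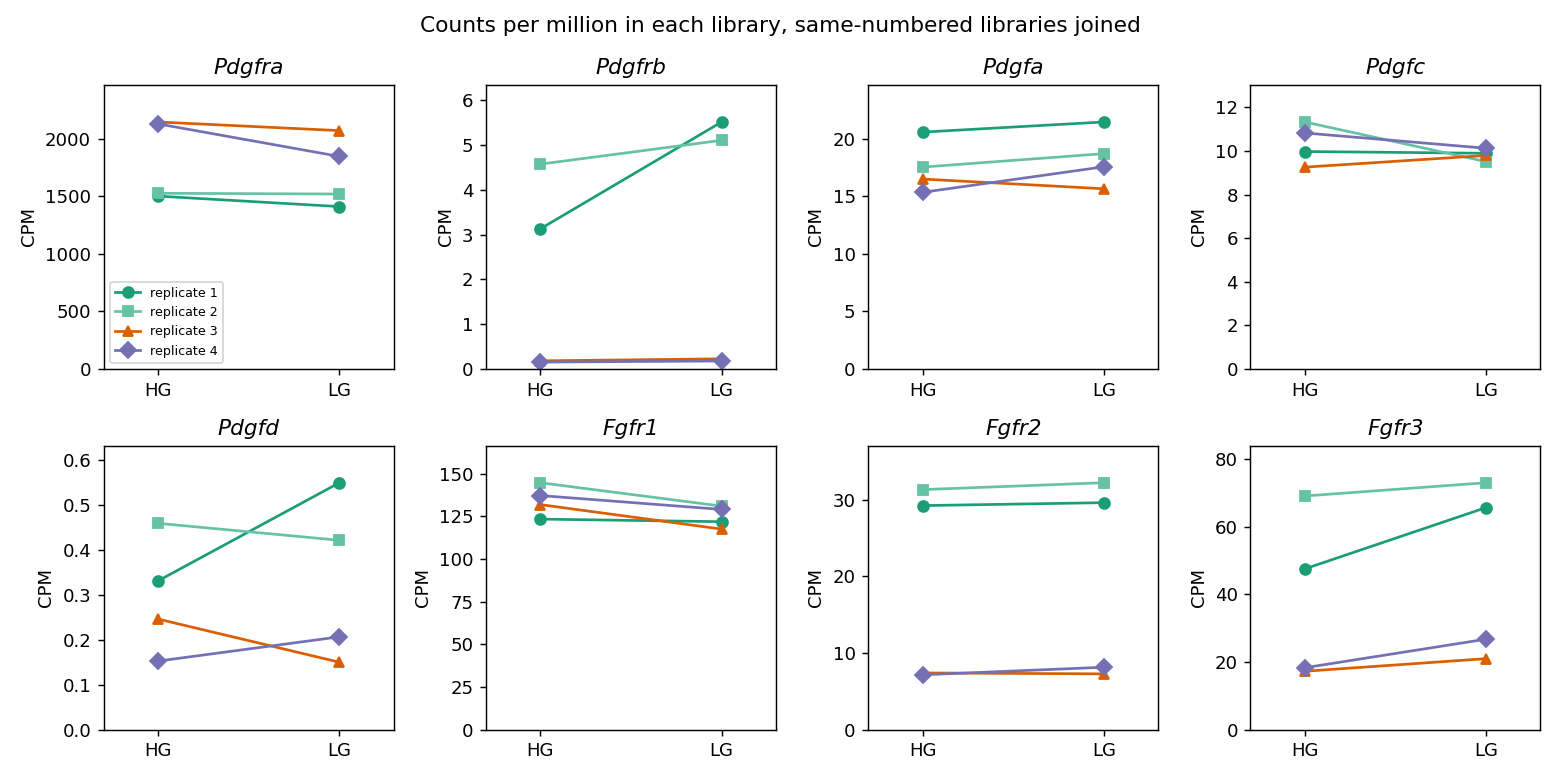
Level in CPM (linear axis from 0, with a scale per gene) of the 8 tested members in HG and LG, 1 point per library, with libraries of the same number joined. Lines for replicates 1 and 2 lie above those of replicates 3 and 4 for Pdgfrb, Fgfr2, Fgfr3 and Pdgfd and below them for Pdgfra. All 4 lines of Fgfr3 and of Pdgfrb rise from HG to LG, all 4 of Pdgfra and of Fgfr1 descend, and those of Pdgfd run both ways.

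Whether low glucose changed these genes was asked across all 18905 tested genes by edgeR's quasi-likelihood test. No member passed, and 0.0% of all genes passed at the same Benjamini-Hochberg threshold of 0.05, where edgeR gave every member an adjusted p of 0.9999. At an unadjusted p under 0.05 there were 745 genes (3.94%) by edgeR and 0 members, and DESeq2 in the same design called 4 genes (0.0212%) and 0 members. Deviations of same-numbered libraries correlated, so the fit with the replicate number as a block was read beside the first. In it 0.418% of all genes passed and again no member did. Fgfr3 came closest, with a log2 fold change of 0.34 (SE 0.080, 95% interval 0.16 to 0.52) and adjusted p = 0.103 by edgeR. DESeq2 with the same block called it as higher in LG (log2 fold change 0.35, adjusted p = 0.00973), where it called 2.51% of all genes, 0.894% as higher, so the call depends on the tool.

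The pair differences show what lies behind these values. For Fgfr3, LG minus HG was 0.47, 0.08, 0.28 and 0.55 on the log2 CPM scale in pairs 1 to 4. In the block fit its log2 fold change ran from 0.27 without pair 4 to 0.43 without pair 2, and with GC and length offsets it was 0.27 (adjusted p = 0.127 by edgeR). Without the block the value was 0.29 (SE 0.603) and became -0.008 when LG replicate 2 was left out. The summed astrocyte markers moved by 0.14, -0.02, 0.01 and -0.17 in the same pairs, and their part in the Fgfr3 difference was not tested. Pdgfrb differed by 0.81, 0.16, 0.27 and 0.18, with 0.44 in the block fit (SE 0.193, edgeR adjusted p = 0.359), and this was 0.20 without pair 1. Summed mural cell markers, made up mostly of Notch3, were at 0.63, 0.03, 0.07 and -0.09, furthest apart in pair 1. The part of mural cells or of Notch3 in the Pdgfrb difference between HG and LG was not tested.

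Pdgfra and Fgfr1, the most abundant of the 5 member receptor genes, had small differences, with LG below HG in all 4 pairs. The block fit gave Pdgfra -0.09 with a 95% interval from -0.24 to 0.07, and Fgfr1 -0.10 with an interval from -0.23 to 0.02 (edgeR adjusted p = 0.614 and 0.445). With offsets and block Fgfr1 was at -0.16 (edgeR adjusted p = 0.190). Fgfr2 was at 0.05 with an interval from -0.11 to 0.22. Of the 8 tested members, 2 were lower and 2 were higher in LG in all 4 pairs, against 11.0% and 10.7% of all tested genes. None of the members had HG and LG libraries that did not overlap, which 2.89% of tested genes had.

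For the ligand genes, the block fit placed Pdgfa at 0.07 (interval -0.10 to 0.23), Pdgfc at -0.07 (interval -0.26 to 0.12) and Pdgfd at 0.11 (interval -0.71 to 0.94). In that fit, which takes pairs 1 and 2 of 1 preparation as separate pairs, the intervals of Pdgfa and Pdgfc span only small differences. Without the block they were wider, at -0.21 to 0.35 for Pdgfa and -0.30 to 0.15 for Pdgfc. For Pdgfd the few counts limit what could be seen.

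**Figure D3:**
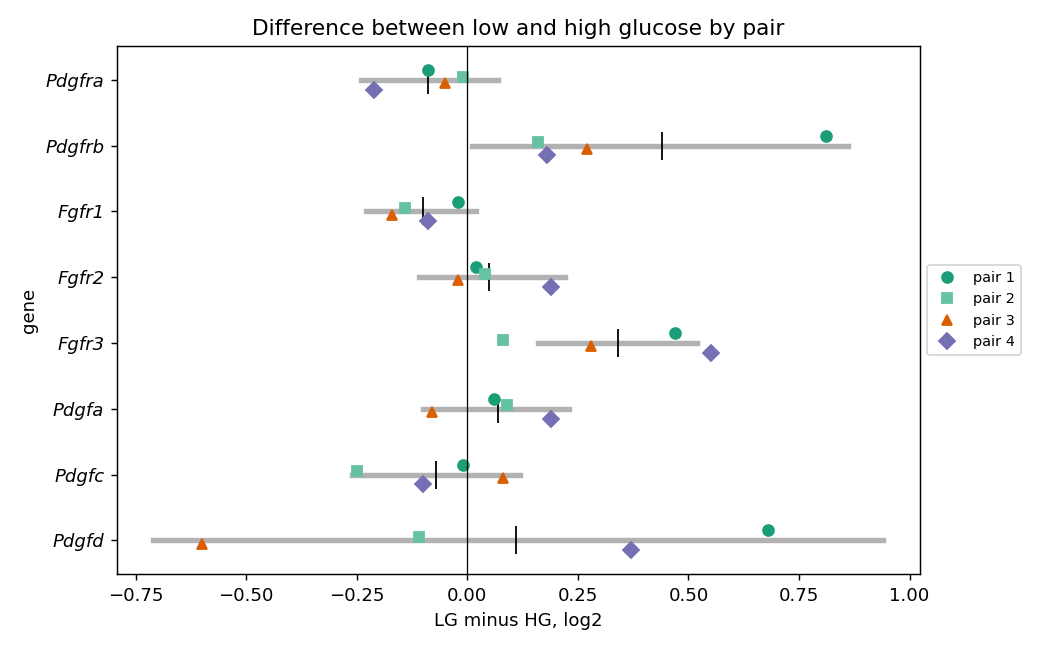
Difference between LG and HG (log2) for each tested member, with 1 point per pair of same-numbered libraries, a tick for the log2 fold change of the edgeR fit with the replicate block and a grey bar for its 95% interval. For Fgfr3 all 4 pairs lie above 0, from 0.08 to 0.55, and for Pdgfra and Fgfr1 all lie below 0, while the interval of Pdgfd spans -0.71 to 0.94.

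Pdgfra, Pdgfrb, Fgfr2 and Fgfr3 differed between the numbered cultures. In a test of the replicate numbers in the block fit, 4 of 8 tested members passed (edgeR adjusted p = 0.00513 for Pdgfra, 6.5e-07 for Pdgfrb, 1.5e-07 for Fgfr2 and 1.2e-06 for Fgfr3), against 20.5% of all tested genes. The same 4 members passed when each number was left out in turn and when the preparation code replaced the number. Pdgfrb, Fgfr2 and Fgfr3 were higher in the preparation of numbers 1 and 2, whose means were 24.9, 4.08 and 3.06 times those of numbers 3 and 4. Pdgfra went the other way, from 1490.3 CPM in numbers 1 and 2 to 2049 CPM in numbers 3 and 4. The split into these sets of numbers was read from the data. The difference of Pdgfrb was exceeded in size by 17 of the 18905 tested genes, that of Fgfr2 by 1.52% and that of Fgfr3 by 2.18%.

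Fgfr1 and Pdgfc hardly differed between the cultures, with 130.2 and 128.9 CPM for Fgfr1 and 10.2 and 10.0 CPM for Pdgfc in numbers 1 and 2 and in numbers 3 and 4. Pdgfa was at 19.6 and 16.3 CPM (edgeR adjusted p = 0.0616 between numbers). Pdgfd was at 0.441 and 0.189 CPM (edgeR adjusted p = 0.158). Without overlap, 4 members (Pdgfrb, Pdgfd, Fgfr2 and Fgfr3) had numbers 1 and 2 above 3 and 4, as did 11.2% of all tested genes, and Pdgfra was the 1 member with the reverse order, which 11.9% of genes had. In bulk RNA, fewer cells of a type and less RNA per cell cannot be told apart.

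The balance among the FGF receptors followed the cultures. In numbers 1 and 2, Fgfr1 held 49.9% to 56.9% of the summed FPKM of the 3 receptor genes, Fgfr3 30.2% to 38.4% and Fgfr2 11.1% to 12.9%. In numbers 3 and 4 the share of Fgfr1 was 74.3% to 81.0%, that of Fgfr3 14.6% to 21.2% and that of Fgfr2 4.04% to 4.54%. Within each pair the Fgfr1 share was lower in LG, for example 81.0% in HG and 74.3% in LG of replicate 4. The ratio of Pdgfra to Pdgfrb FPKM ran from 139.8 to 262.4 in numbers 1 and 2 and from 5028 to 7622 in numbers 3 and 4.

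**Figure D4:**
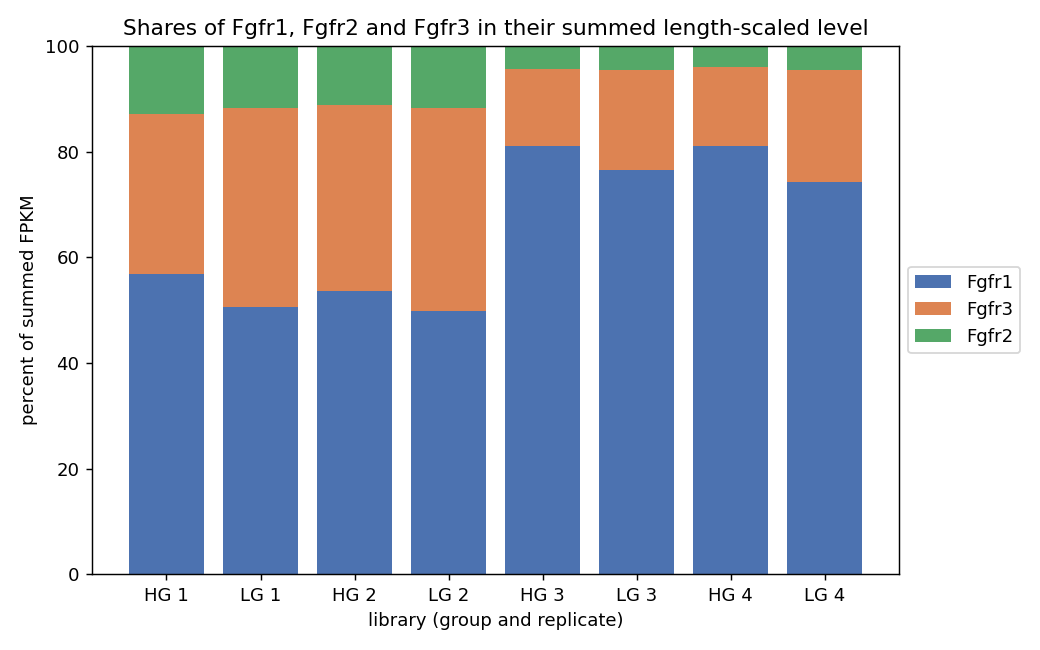
Share of Fgfr1, Fgfr3 and Fgfr2 in their summed FPKM (percent, stacked to 100) in each of the 8 libraries, with HG and LG of the same number side by side. Fgfr1 holds 49.9% to 56.9% in replicates 1 and 2 and 74.3% to 81.0% in replicates 3 and 4.

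Summed markers of some other cell types differed with the same split, in either direction, while those of neurons and endothelial cells overlapped. The 12 astrocyte markers summed to 2179 to 2395 CPM in numbers 1 and 2 and to 862.2 to 1039.6 CPM in numbers 3 and 4, none was listed at 0 in all libraries, and 10 of 12 were higher without overlap in numbers 1 and 2. Among them Slc1a3, a glutamate transporter, was at 646.8 and 223.5 CPM, and the water channel gene Aqp4, named after its values were seen, was at 109.2 and 4.501 CPM. In the same list 1 marker had the reverse order without overlap. S100b and Sox9 were also named after their values were seen. S100b was lower in numbers 1 and 2, at 38.5 and 58.6 CPM (edgeR adjusted p = 0.000522 between numbers), and Sox9 differed little, at 295.4 and 264.0 CPM. Summed progenitor markers were lower in numbers 1 and 2, at 8135 to 9118 CPM against 10440.0 to 11431 CPM. Of the 12 progenitor markers, 8 were lower without overlap in numbers 1 and 2 and 0 were higher without overlap. The most abundant, Ptprz1, had the higher mean in numbers 1 and 2, at 2663 and 2330 CPM. The part of other cells in the receptor differences was not tested. Markers of neurons summed to 1266 to 1494 CPM in numbers 1 and 2 and to 1267 to 1391 CPM in numbers 3 and 4, led by Map2, and those of myelinating oligodendrocytes, led by Cnp, to 601.8 to 671.2 CPM and 690.3 to 915.9 CPM. Fibroblast markers, with Slc6a13 at 0, summed to 29.2 to 37.5 CPM and 38.5 to 41.9 CPM, which was Fbln1 for the most part (means of 30.0 and 39.2 CPM). Of the 4 tested fibroblast markers, 2 were higher without overlap in numbers 1 and 2 and 1 in numbers 3 and 4. Islr and Ogn, named after their values were seen, were higher in numbers 1 and 2. Islr was at 3.35 and 0.0377 CPM and Ogn at 0.575 and 0.0305 CPM. Endothelial markers, led by Vwf, summed to 5.25 to 6.98 CPM and 5.25 to 7.66 CPM, and this sum was higher in LG in 4 of 4 pairs. Mural cell markers summed to 29.3 to 47.4 CPM in numbers 1 and 2 and to 9.48 to 11.6 CPM in numbers 3 and 4, which was Notch3 for the most part (means of 39.99 and 7.91 CPM). The other 11 markers, with Anpep at 0, were near the limit of counting and summed to 1.70 to 2.48 CPM and to 2.29 to 3.00 CPM. The part of mural cells in the Pdgfrb difference was not tested.

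**Figure D5:**
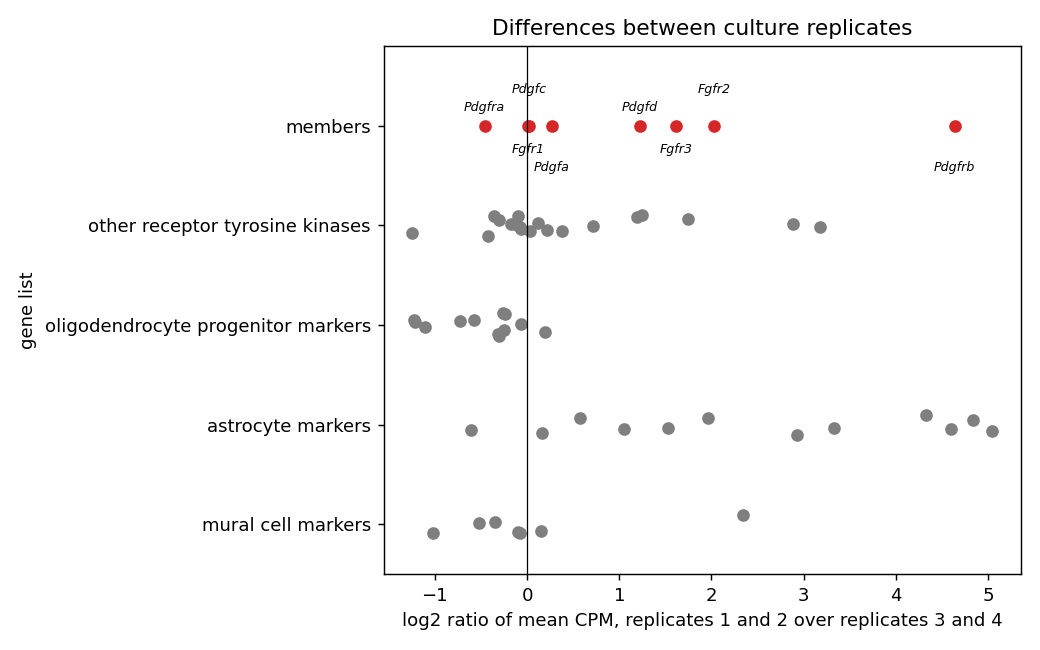
Log2 ratio of mean CPM in replicates 1 and 2 over replicates 3 and 4 for the tested members (red, named) and for the tested genes of 4 lists (grey, 1 point per gene). Pdgfrb, Fgfr2 and Fgfr3 lie to the right among most astrocyte markers, Pdgfra lies to the left among most progenitor markers, and of the 7 tested mural cell markers only Notch3 lies to the right of 1.

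The promoters of 3 receptor genes that differed between cultures are shown, of which 2, Fgfr2 and Fgfr3, moved together and Pdgfra moved against them. Pdgfrb moved with Fgfr2 and Fgfr3 too, but had no window in the reference used. The sequences are RefSeq windows on GRCm38.p6, 250 bases before to 50 after the start, written 5′ to 3′ on the strand of the gene: chr5:75152001-75152300 (plus) for Pdgfra, chr7:130266759-130267058 (minus) for Fgfr2 and chr5:33721474-33721773 (plus) for Fgfr3, the first of 2 windows listed for that gene. Capitals mark the GC box GGGCGG, the letters that the factor Sp1 binds, on either strand.
Pdgfra: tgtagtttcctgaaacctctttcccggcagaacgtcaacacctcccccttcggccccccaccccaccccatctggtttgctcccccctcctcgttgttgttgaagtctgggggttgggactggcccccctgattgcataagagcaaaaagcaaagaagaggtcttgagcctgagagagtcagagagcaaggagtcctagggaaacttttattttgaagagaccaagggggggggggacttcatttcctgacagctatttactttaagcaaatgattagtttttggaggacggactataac
Fgfr2: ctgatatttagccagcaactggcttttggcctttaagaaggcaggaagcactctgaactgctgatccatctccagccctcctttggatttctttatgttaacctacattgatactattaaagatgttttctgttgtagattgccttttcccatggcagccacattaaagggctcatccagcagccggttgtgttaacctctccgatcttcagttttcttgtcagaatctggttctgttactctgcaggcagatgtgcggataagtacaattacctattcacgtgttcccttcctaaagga
Fgfr3: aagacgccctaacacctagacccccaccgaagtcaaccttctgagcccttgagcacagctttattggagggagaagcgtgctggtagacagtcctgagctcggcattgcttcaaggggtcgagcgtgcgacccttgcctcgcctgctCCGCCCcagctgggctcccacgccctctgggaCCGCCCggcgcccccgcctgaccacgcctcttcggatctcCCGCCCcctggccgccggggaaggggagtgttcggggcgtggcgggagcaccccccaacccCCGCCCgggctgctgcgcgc
The Fgfr3 window held 4 GC boxes and 26 CpG dinucleotides, while those of Fgfr2 and Pdgfra held 0 GC boxes with 4 and 5 CpG. Over all 32851 windows of this length, 35.7% held a GC box and the median was 7 CpG. A TATA box (TATAAA on either strand, in 13.6% of windows) was in none of these 3 windows. Among the 6 members with a window, Pdgfa had GC boxes in both of its windows, Pdgfc in none, and Pdgfd had a TATA box. The second Fgfr3 window, not shown, held 2 GC boxes and 30 CpG. A match is a description of letters and says nothing on binding.

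Genes that carry the signal were measured next to the receptors, in lists drawn up by function with earlier results of these data known. Of 18 FGF ligand genes, 6 were tested, none passed with or without the block, and Fgf3, Fgf4, Fgf6 and Fgf20 were listed at 0. Fgf1, the most abundant at 1.84 FPKM, differed between numbers in the direction of Pdgfrb, Fgfr2 and Fgfr3, not of Pdgfra. It had 16.7 CPM in numbers 1 and 2 and 3.47 CPM in numbers 3 and 4 (edgeR adjusted p = 2.6e-06). Fgf2, which encodes the bFGF used in the expansion medium, averaged 1.89 ± 0.880 CPM under HG and 1.23 ± 0.676 CPM under LG (SD over 4 libraries), lower in LG in 4 of 4 pairs (block log2 fold change -0.65, edgeR adjusted p = 0.226). Fgf5 was at -0.62 with the block. The list median was -0.20 in the block fit, against 0.0015 over all tested genes, and it was 0.30 without HG replicate 1 in the fit without the block.

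Of 17 other FGF receptors and co-receptors, 15 were tested and 0 passed, 10 were positive with the block (50.4% of all tested genes were) and the median was 0.11. Sdc3, which encodes the heparan sulfate proteoglycan syndecan-3, was the most abundant at 150.4 FPKM and was at 0.17 in LG against HG. Gpc1, for the cell surface proteoglycan glypican-1, was at 0.18 and higher in LG in 4 of 4 pairs. Hspg2, for perlecan, was at 0.20. In the fit without the block, Hspg2 was at -0.038 when LG replicate 4 was left out. Between numbers, 7 of the 15 passed, against 20.5% of all tested genes (edgeR). None of the 7 genes for proteases that process PDGF ligands passed, with a median of 0.03. Pcsk6, a proprotein convertase gene, averaged 36.1 ± 2.58 CPM under HG and 43.7 ± 3.81 CPM under LG (SD over 4 libraries), higher in LG in 4 of 4 pairs (block log2 fold change 0.27, edgeR adjusted p = 0.111), and passed by DESeq2 with the block (adjusted p = 0.0210). Furin, a convertase that acts on the PDGF-A precursor, was at 0.20, and Plat, for the tissue plasminogen activator that frees PDGF-CC, was at 0.03 with 152.5 CPM in numbers 1 and 2 and 70.0 CPM in numbers 3 and 4.

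Inside the cell, 0 of 24 adaptor and lipid enzyme genes passed, with 11 positive and a median of -0.03. The kinase gene Fyn was the most abundant at 157.0 FPKM and at 0.07, the adaptor gene Shc3 was at -0.19 and lower in LG in 4 of 4 pairs, and Shc2 was at 0.22 and higher in 4 of 4. In the chain from Ras to ERK and AKT 0 of 13 genes passed, 11 were positive, the median was 0.02, and 0 lay to the same side in all 4 pairs. Between numbers 0 of 13 passed, against the same 20.5%. Its most abundant gene Akt1 was at 0.09, Akt2 at 0.13 and Braf at -0.22. Of 12 phosphatases, ubiquitin ligases and other inhibitors, 0 passed, 3 were positive and the median was -0.11, or -0.04 with the offsets as well. Ptpn2, a tyrosine phosphatase gene, was at -0.19 and Flrt3, for an FGF receptor binding protein, at -0.14. Lrig1, for a membrane protein that promotes loss of receptor tyrosine kinases, was at 0.05 and had 178.2 CPM in numbers 1 and 2 against 59.3 CPM in numbers 3 and 4.

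Transcripts that ERK signalling induces were the list in which a gene passed. Of 17 tested genes 1 passed with the block, against 0.418% of all tested genes. In the list 1 gene was positive, against 50.4% of all, the block median was -0.17, and 8 were lower in LG in 4 of 4 pairs, against 11.0% of all. Earlier results of these data were known when this list was written, so its direction is not independent evidence. Spry4, which encodes a Sprouty inhibitor of the pathway, fell in the block fit, with means of 107.7 ± 7.12 CPM under HG and 82.4 ± 8.44 CPM under LG (SD over 4 libraries). Its log2 fold change was -0.39 (SE 0.062, edgeR adjusted p = 0.0353), and it did not pass without the block or with sums per preparation (edgeR adjusted p = 0.0729). Ccnd1, for cyclin D1, was at -0.31 (edgeR adjusted p = 0.0747) and passed with the offsets as well (adjusted p = 0.0314), where 0.809% of all genes passed. Beside them, Pdgfra and Fgfr1 themselves were at -0.09 and -0.10. Whether these differences differ from each other was not tested.

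Other receptor tyrosine kinase genes were compared as the nearest family. Of 28 genes 19 were tested, 0 passed with the block and the median was 0.03. Epha4, an ephrin receptor gene, was at 0.35 and higher in LG in 4 of 4 pairs (edgeR adjusted p = 0.0747, and 0.0151 with the offsets as well, where it passed). Ddr1, a collagen receptor gene, was the most abundant at 57.9 FPKM and at 0.06. Pdgfra at 176.5 FPKM stood above it. Between numbers 9 of 19 passed, against 20.5% of all tested genes, and Egfr, the epidermal growth factor receptor gene, had 128.9 CPM in numbers 1 and 2 and 54.3 CPM in numbers 3 and 4, the direction of Fgfr2 and Fgfr3.

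Genes with the most similar pattern were found by Pearson's r of log2 CPM over the 8 libraries, among 11482 genes with a mean of at least 5 CPM. These libraries share preparations, and most members followed the split between cultures, so r is given as a description. Nearest to Pdgfra were the sodium-calcium exchanger gene Slc8a3 (r = 0.993) and Synrg (r = 0.985). Nearest to Fgfr3 were Fam189a2 (r = 0.997) and Pacsin3 (r = 0.994), to Fgfr2 Sorcs2 and Amot (r = 0.997 for both), and to Pdgfrb AI464131 and the glycogen phosphorylase gene Pygb (r = 0.999 for both). Fgfr1 was nearest to the separase gene Espl1 (r = 0.960) and Secisbp2 (r = 0.931). Pdgfa was nearest to Hacd2 (r = 0.964) and Brd9 (r = 0.963), Pdgfc to Mtfr1 (r = 0.922) and Gucy1b1 (r = 0.892), and Pdgfd to Lhx2 (r = 0.981) and Rnf141 (r = 0.968). Among the members, Fgfr2 and Pdgfrb had r = 0.993 and Fgfr2 and Fgfr3 r = 0.971, while Pdgfra and Fgfr3 had r = -0.967.

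Several members share exons with other annotated genes, which can take or lose reads. Where the partner is on the other strand this holds only if the counting did not use strand. Pdgfa overlaps the antisense gene 6330403L08Rik over 813 exonic bases, and that gene had 640 to 850 counts per library. Fgfr3 overlaps G630022F23Rik on the other strand over 998 bases, with 59 to 106 counts. Fgfr2 shares 314 bases with Ctbp2 on the same strand, where strand cannot part them, and Ctbp2 had 1957 to 3063 counts against 388 to 2064 for Fgfr2. The antisense gene Gm42802 shares 456 bases with Pdgfra and had 0 counts.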

How the data were processed

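RNA of 8 libraries was measured by mRNA sequencing from 100 ng of total RNA with paired-end reads of 150 bp. The authors deposited unnormalized counts for Ensembl gene IDs. Per the submitters' processing notes the tools were STAR, CASAVA 1.8.2, DESeq2 and featureCounts and the build was mm10, whose roles and order they leave unstated. Strand setting: not given in the sources used here. Of the 56980 IDs, 52125 matched GENCODE M21 (GRCm38), which gave symbols, positions, exon lengths and GC content (known for 97.5% of tested genes).

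The members and lists were chosen with earlier results of these data known. Lists held 8 pathway groups and 12 markers for each of 8 cell types. Counts were filtered by filterByExpr (18905 genes), scaled by TMM and tested in R 4.3.3 with edgeR 4.0.16 (robust quasi-likelihood, Benjamini-Hochberg threshold 0.05). An SE is the log2 fold change divided by the square root of F. Pair differences and r used log2 CPM with a prior count of 2. The replicate number was taken as a block beside this: numbers 1 and 2 share a preparation code, every same-number correlation of deviations was 0.448 to 0.625 across genes, and all 8 libraries correlated best with their own number. No library repeats another of its group (chi-square over degrees of freedom at least 19.1). Libraries of different groups were not compared in this way. P-values without a block measure the spread between these libraries. With a block, and in the test of replicate numbers, they measure the spread left after the block and group terms. FPKM divided TMM-scaled CPM by kilobases of merged exons.

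Alternatives were DESeq2 1.42.0, limma-voom (limma 3.58.1), other scaling and filters, GC and length offsets (mgcv 1.9.3), sums per preparation and left-out libraries or pairs. Preparation terms in place of number terms were an alternative chosen after seeing the data. The scripts were tested on simulated counts. Some marker genes outside the rule below were named after their values were seen, as stated with them. Named genes besides the members were, of each list, those that passed (at most 4), otherwise the 2 of smallest p with the block, and the most abundant; of each marker list the most abundant (the summed level of the microglial list is not reported here); and the 2 genes most like each member.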

Additional observations from a re-analysis of the deposited data

Results flagged for a closer look

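In 62 groups of 4 libraries, over the tested members and the named pathway genes, 3 held a library standing well away from its group, and chance at 1 in 20 would give 3.1. None of them was a PDGF or FGF receptor or PDGF ligand gene. Hspg2 was highest in LG replicate 4 at 4.86 log2 CPM, with the other LG libraries at 4.01 to 4.15. Akt1 was lowest in LG replicate 4 at 7.76 log2 CPM, below 7.87 to 7.89 in the rest of LG. For Ccnd1, HG replicate 2 had the least, 9.12 log2 CPM, below 9.23 to 9.25 in the rest of HG.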

How the results depend on the processing

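The number of genes that passed for LG against HG changed with the block, the tool and the pair left out. Against 0 genes without the block, 79 passed with the replicate block, 153 with block and GC and length offsets, 1 with a preparation block, 17 with sums per preparation, 4 by DESeq2 and 474 by DESeq2 with the block. Leaving out 1 library gave 0 genes, and with the block, leaving out pair 1, 2, 3 or 4 gave 6, 0, 39 or 148 genes. Of the members 1 (Fgfr3) passed by DESeq2 with the block and 0 in every other setting. DESeq2 with the block gave no adjusted p for Pdgfrb and Pdgfd. Of the pathway genes 0 passed without the block, 1 with it, 5 by DESeq2 with it, 4 with offsets and block, and 0 to 1 with a library or pair left out. The 4 members that differed between numbers were 4 in each setting except without a filter, where Pdgfa made 5. Leaving out 1 library or pair turned the sign of 5 members. Their log2 fold changes ran from -0.119 to 1.29 for Pdgfrb, -0.015 to 0.16 for Pdgfa and -0.179 to 0.463 for Pdgfd. They ran from -0.322 to 0.429 for Fgfr2 and from -0.008 to 0.774 for Fgfr3. The ends of these ranges came from fits without the block and without 1 library, whose number then remained in 1 group only. With the block and a pair left out, Pdgfd alone among the members changed sign (-0.128 without pair 1). Pdgfrb, Pdgfa, Fgfr2 and Fgfr3 stayed positive in these fits. With 1 library or pair left out, the sign also turned for Fgf1 (-0.648 to 0.335), Hspg2 (-0.038 to 0.407) and Plat (-0.153 to 0.288). The same held for Lrig1 (-0.246 to 0.437), Egfr (-0.375 to 0.112) and Ddr1 (-0.016 to 0.148). With the block and a pair left out, only Plat (-0.022) and Ddr1 (-0.016) of these turned, both without pair 1. With GC and length offsets, Lrig1 was at -0.003 (-0.005 with the block), Egfr at 0.022 and Ddr1 at -0.024 (-0.025 with the block). The cause was not tested. Pdgfra, Pdgfc and Fgfr1 were negative in all settings run. Depth limits Pdgfd and, in numbers 3 and 4, Pdgfrb, where a library held 8 to 29 and 9 to 12 counts.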
